A study of Mus musculus with 12 samples.

Results

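The transcripts described are 10 markers of central nervous system glia, measured in auditory nerve preparations of adult CBA/CaJ mice after ouabain injury. They are Aqp4, Aldh1l1, Slc1a2, Slc1a3, Glul and S100b, which mark astrocytes, and Mog, Mobp, Olig1 and Olig2, which mark oligodendrocytes. The members were chosen by gene symbol: every probe set of the array whose annotation carries exactly 1 of these symbols was taken, which gave 28 probe sets for 10 of the 18193 genes with such a probe set. The ouabain ears were right ears of mice aged 8 to 12 weeks that received about 10 µl of 3 mM ouabain, an inhibitor of the sodium pump, in the round window niche for about 60 min. The control ears were left ears of treated mice and were not operated on, so no group received the surgery alone. The labels call them unoperated contralateral controls at 3 days and only controls at 7 days. Ears were collected 3 or 7 days after treatment, 3 arrays were made for each of the 4 groups, and the RNA on an array came from a pool of 2 modiolus preparations. Treated mice with a small shift of the auditory brainstem response were excluded by the study, and mice of both sexes were used, with no sex given for an array.

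The auditory nerve has a peripheral portion, in which Schwann cells and satellite glia surround the spiral ganglion neurons and their fibers, and a central portion, in which oligodendrocytes make the myelin and astrocytes fill the space between the fibers. The border between them, the glial transition zone, lies near the base of the modiolus, so a modiolus preparation holds both kinds of glia in proportions that depend on where the nerve is severed. Myelin oligodendrocyte glycoprotein (Mog) and myelin-associated oligodendrocyte basic protein (Mobp) are components of central myelin, and Olig1 and Olig2 are transcription factors of the oligodendrocyte lineage. Aqp4 is the water channel of astrocyte end-feet, Aldh1l1 is a folate enzyme used to mark astrocytes, Slc1a2 (GLT-1) and Slc1a3 (GLAST) take up glutamate, and Glul turns glutamate into glutamine. Several of the astrocyte markers are less specific in the ear: Slc1a3, Glul and S100b are also known from satellite glia, Schwann cells or supporting cells of the cochlea, and Aqp4 from supporting cells.

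The upstream sequence of 2 of the central myelin genes is shown because Mobp carries a run of matches to the SOX core ACAAAG. Mog, whose level moved with that of Mobp from array to array, carries no match to this exact core. Sox10, a factor that oligodendrocytes and Schwann cells share, and Sox2 bind the core ACAAAG, written CTTTGT on the other strand. Both stretches are the 250 bases before the RefSeq start of the gene in GRCm38.p6, 5′ to 3′ on the strand of the gene, with each match to the core in capitals. Mobp lies at chr9:120149492-120149741 on the plus strand and Mog at chr17:37023399-37023648 on the minus strand.
Mobp: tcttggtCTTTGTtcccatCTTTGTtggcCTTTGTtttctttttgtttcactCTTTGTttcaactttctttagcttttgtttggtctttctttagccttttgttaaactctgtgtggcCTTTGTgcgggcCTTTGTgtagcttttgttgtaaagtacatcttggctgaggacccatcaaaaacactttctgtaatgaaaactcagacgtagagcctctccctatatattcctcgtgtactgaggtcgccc
Mog: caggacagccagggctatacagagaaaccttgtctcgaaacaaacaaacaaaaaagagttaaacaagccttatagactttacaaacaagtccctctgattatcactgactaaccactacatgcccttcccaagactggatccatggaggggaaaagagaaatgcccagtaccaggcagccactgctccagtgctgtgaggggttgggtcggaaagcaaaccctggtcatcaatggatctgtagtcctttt
The core was searched on both strands in the 250 bases before each of 32851 RefSeq starts, and 16.5% of these windows held at least 1 match. Mobp held 6 matches, between 243 and 120 bases before its start, and no other window held 6 or more. Windows were found for 8 of the members, and Aldh1l1, Slc1a2, Slc1a3, Glul, Mog, Olig2 and S100b held no match. Aqp4 and Olig1 were not searched. Other forms of the SOX site were not searched, so a window without a match may still hold such a form. A match is a run of letters and was not tested as a binding site.

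All 12 arrays had similar distributions, with medians between 6.01 and 6.09 on the log2 scale and 50.1% to 51.2% of probe sets above a log2 value of 6. A probe set was called when the Benjamini-Hochberg adjusted p of the limma fit over 45037 probe sets was under 0.05 and the fold change was above 1.5. The brightest probe set of a gene stands for the gene. Among the markers, 9 of 10 averaged above a log2 value of 6 over all arrays, and Olig2 averaged 5.51.

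Central glia markers were higher after ouabain where they differed past both thresholds. At 3 days Aqp4, Aldh1l1, Olig1 and Olig2 rose, at 7 days Aqp4 and Olig1 rose, and no marker was called lower at either day. Olig1 had the largest change of the 10, 2.36-fold at 3 days and 2.52-fold at 7. Of all probe sets tested, 5.71% were called higher at 3 days and 6.58% lower, and at 7 days 6.14% were called higher and 6.51% lower. On the log2 scale the median change of the markers was 0.59 at 3 days, beside 0.01 over all genes, and 0.53 at 7 days, beside 0.03. Leaving out each array in turn moved the number called higher to between 1 and 6 at 3 days and between 2 and 4 at 7 days, with Olig1 called in every one of these fits. Counted by probe set, 6 of 28 were called higher at 3 days and 5 of 28 at 7 days. Because the tissue is a mixture, more glial cells of a type and more RNA in each of them cannot be told apart.

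**Figure D1:**
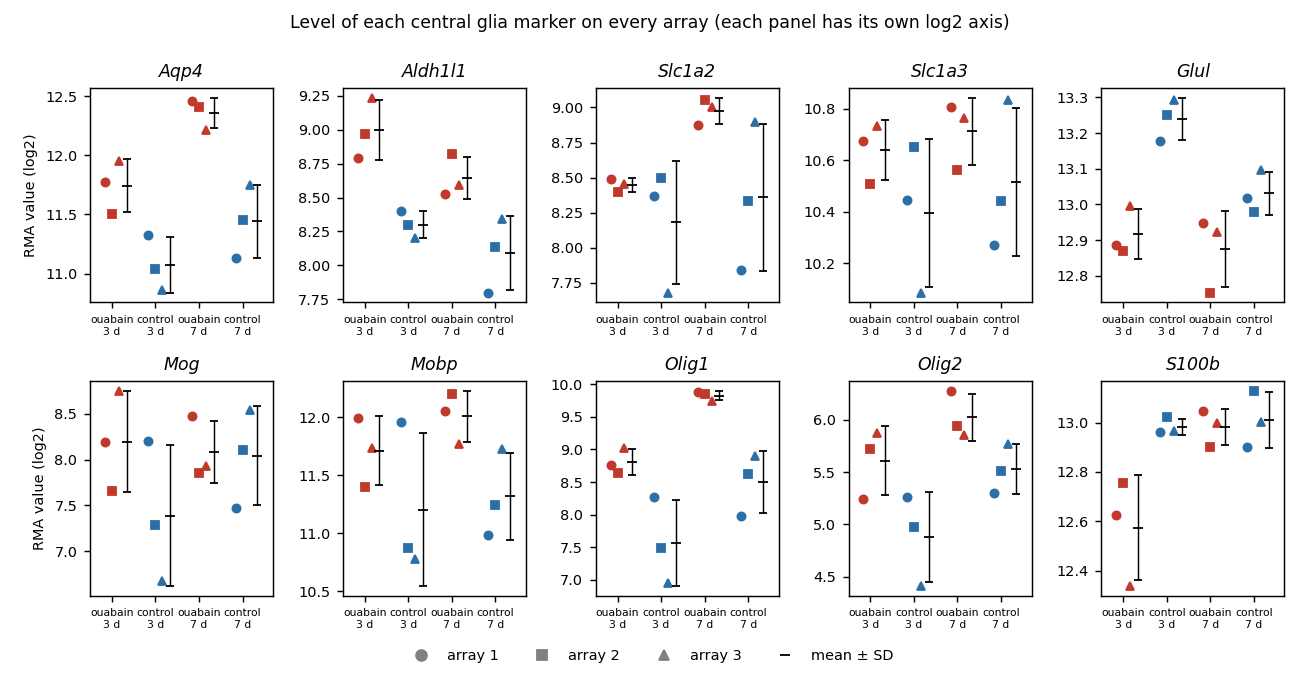
Log2 RMA value of the brightest probe set of each of the 10 markers on all 12 arrays, with ouabain arrays in red and control arrays in blue at 3 and 7 days and the group mean ± SD (n = 3) in black. Olig1 lies above log2 9.7 on the 3 ouabain arrays at 7 days and below 9.0 on the 3 control arrays, while Mog overlaps between the groups at both days.

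The oligodendrocyte lineage factor Olig1 separated the groups at both days. At 3 days its log2 value was 8.76, 8.64 and 9.02 on the ouabain arrays, against 8.27, 7.48 and 6.95 on the control arrays. All ouabain arrays lay above all control arrays, and the controls spanned a wide range. The difference was 1.24 on the log2 scale (SE 0.29, limma adjusted p = 0.00743). At 7 days it measured 9.89, 9.85 and 9.75 on the ouabain arrays, against 7.97, 8.63 and 8.90 on the control arrays. The ouabain arrays differed by little among themselves there (SD 0.07) and the control arrays by much more (SD 0.48). The difference at 7 days was 1.33 (SE 0.29, limma adjusted p = 0.00491). Which cells of the mixed preparation held the Olig1 RNA was not tested.

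Olig2, the partner of Olig1 in the specification of oligodendrocytes, averaged below a log2 value of 6. At 3 days it read 5.24, 5.72 and 5.88 on the ouabain arrays, against 5.26, 4.97 and 4.41 on the control arrays, and ouabain array 1 lay just below control array 1. The log2 difference of 0.73 was called (SE 0.22, limma adjusted p = 0.0318). At 7 days the values were 6.28, 5.94 and 5.85 on the ouabain arrays, against 5.30, 5.51 and 5.77 on the control arrays. The groups did not overlap at 7 days, yet the log2 difference of 0.50 did not pass (SE 0.22, limma adjusted p = 0.131). The call of Olig2 at 3 days was lost under 11 of 25 alternatives, among them each fit without ouabain array 2 or 3 or control array 2 or 3 at 3 days (0.68, 0.60, 0.77 and 0.49, with limma adjusted p from 0.0579 to 0.131) and the fit on the 6 arrays of the day (limma adjusted p = 0.0631).

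Neither gene of central myelin was called at either day. Mog, a late marker of mature oligodendrocytes on the outer face of myelin, read 8.19, 7.65 and 8.75 on the ouabain arrays at 3 days, against 8.20, 7.29 and 6.68 on the control arrays. The difference was 0.81 with a standard error of 0.39 (limma adjusted p = 0.175), and 1 control array was as high as the middle ouabain array. At 7 days Mog measured 8.47, 7.85 and 7.93 on the ouabain arrays, against 7.47, 8.11 and 8.55 on the control arrays. The groups overlapped fully and their means differed by 0.04 (SE 0.39, limma adjusted p = 0.957). Control array 1 at 3 days decided the call of both myelin genes: without it Mog was called higher at 3 days (1.22, limma adjusted p = 0.0348).

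The other myelin gene, Mobp, read 12.00, 11.40 and 11.73 on the ouabain arrays at 3 days, against 11.96, 10.88 and 10.78 on the control arrays. Control array 1 stood with the ouabain arrays, and the difference of 0.51 was not called (SE 0.29, limma adjusted p = 0.269). Without that array it was 0.88 and was called (limma adjusted p = 0.0152). At 7 days the values were 12.06, 12.20 and 11.77 on the ouabain arrays, against 10.99, 11.24 and 11.73 on the control arrays. The groups did not overlap, by a margin between ouabain array 3 and control array 3 that was narrow, and the difference of 0.69 was not called (SE 0.29, limma adjusted p = 0.106). The same difference was called without control array 1 of the 3-day group (limma adjusted p = 0.0253), which changes only the shared estimate of the spread. The 5 Mobp probe sets disagreed in sign, from -0.38 to 0.60 at the first time and from -0.24 to 0.69 at the second, and none was called.

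Among the astrocyte markers, Aqp4 had the largest change at 7 days. The channel read 11.77, 11.50 and 11.95 on the ouabain arrays at 3 days, against 11.33, 11.04 and 10.86 on the control arrays. All ouabain arrays were above all control arrays, by 0.67 on average (SE 0.17, limma adjusted p = 0.012). Without ouabain array 3 or control array 3 that difference was 0.56 in each case and was not called (limma adjusted p = 0.0587 and 0.0554). At 7 days it read 12.46, 12.41 and 12.22 on the ouabain arrays, against 11.13, 11.45 and 11.75 on the control arrays, a difference of 0.92 (SE 0.17, limma adjusted p = 0.0017). Each of the 3 Aqp4 probe sets was called higher at both days, with log2 fold changes between 0.66 and 1.21 at 3 days and between 0.92 and 1.39 at 7 days. Aqp4 was the 1 member with several probe sets that were all called.

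Aldh1l1 also separated the groups at both days. It read 8.79, 8.97 and 9.24 on the ouabain arrays at 3 days, against 8.40, 8.30 and 8.20 on the control arrays, a difference of 0.70 (SE 0.15, limma adjusted p = 0.00415). Without ouabain array 3 it was 0.58, under the fold threshold (limma adjusted p = 0.0223). At 7 days it read 8.52, 8.82 and 8.60 on the ouabain arrays, against 7.80, 8.14 and 8.34 on the control arrays. The difference of 0.55 at 7 days passed the p threshold (SE 0.15, limma adjusted p = 0.016), but the fold of 1.47 fell short of 1.5. Without control array 3 or ouabain array 1 of that day it was called (0.68 and 0.62, limma adjusted p = 0.00729 and 0.0243). A second Aldh1l1 probe set, with a mean of 3.94, measured -0.01 at 3 days and 0.11 at 7 days and was not called.

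Neither glutamate transporter was called by its brightest probe set. Slc1a2, the main uptake carrier of mature astrocytes, read 8.49, 8.39 and 8.46 on the ouabain arrays at 3 days, against 8.37, 8.497 and 7.68 on the control arrays. At 7 days the values were 8.87, 9.05 and 9.002 on the ouabain arrays, against 7.84, 8.33 and 8.90 on the control arrays. The ouabain arrays were tight at both days (SD 0.05 and 0.09) and the control arrays were not (SD 0.44 and 0.53). Its difference was 0.27 at 3 days (SE 0.24, limma adjusted p = 0.528) and 0.62 at 7 days (SE 0.24, limma adjusted p = 0.0843). Control array 3 of the 7-day group lay just above the lowest ouabain array, and without it Slc1a2 was called higher by 0.89 (limma adjusted p = 0.0115). It was also called without control array 3 of the 3-day group (limma adjusted p = 0.0455). A dimmer Slc1a2 probe set was called higher at 7 days, by 0.71 (SE 0.15, limma adjusted p = 0.00443), and the other 4 were not, with differences from -0.40 to 0.62.

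Slc1a3, used by astrocytes and by glia and supporting cells of the cochlea, was called by none of its 6 probe sets at either day. The brightest read 10.68, 10.51 and 10.73 on the ouabain arrays at 3 days, against 10.45, 10.65 and 10.09 on the control arrays. At 7 days it read 10.81, 10.56 and 10.77 on the ouabain arrays, against 10.27, 10.44 and 10.83 on the control arrays. The groups overlapped at both days. All 6 probe sets had positive differences, between 0.15 and 0.36 at 3 days and between 0.20 and 0.48 at 7 days, and at 7 days 2 of them had a limma adjusted p under the threshold of 0.05 at folds below 1.5.

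Glul and S100b ran the other way at 3 days. Glul read 12.89, 12.87 and 12.996 on the ouabain arrays, against 13.18, 13.25 and 13.29 on the control arrays. All ouabain arrays were below all control arrays, and the difference of -0.32 had a limma adjusted p of 0.0118 but a fold of 1.25. The second Glul probe set differed by -0.58 at 3 days (SE 0.12, limma adjusted p = 0.00273), just under the fold threshold. At 7 days Glul read 12.95, 12.75 and 12.92 on the ouabain arrays, against 13.02, 12.98 and 13.10 on the control arrays, and neither probe set passed. S100b, a calcium-binding protein of astrocytes and Schwann cells, read 12.63, 12.75 and 12.34 on the ouabain arrays at 3 days, against 12.96, 13.02 and 12.96 on the control arrays. The ouabain arrays lay below the control arrays by 0.41 (SE 0.11, limma adjusted p = 0.0142) at a fold of 1.33, and the second S100b probe set differed by -0.48 (SE 0.14, limma adjusted p = 0.0235). At 7 days S100b measured 13.05, 12.90 and 12.999 on the ouabain arrays, against 12.90, 13.13 and 13.002 on the control arrays, with overlapping groups and a difference of -0.03 (SE 0.11, limma adjusted p = 0.889).

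**Figure D2:**
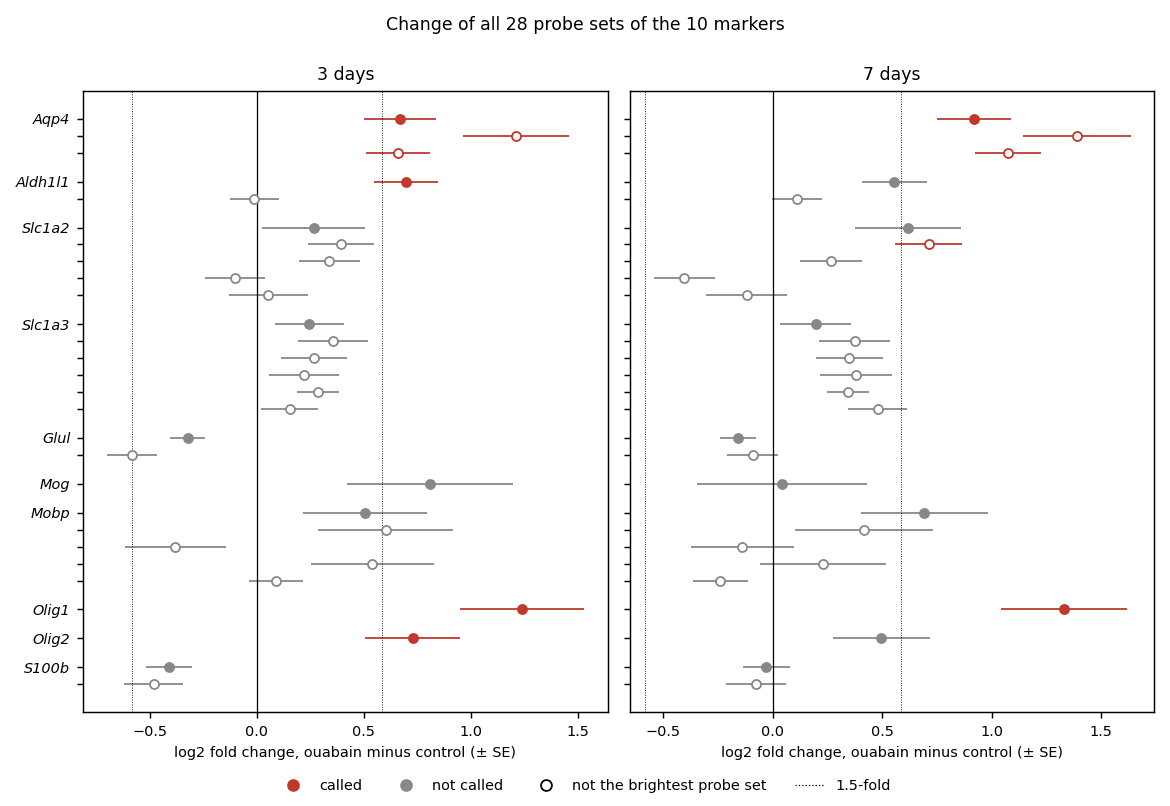
Log2 fold change, ouabain minus control, ± SE of all 28 probe sets of the 10 markers at 3 days (left) and 7 days (right), with filled points for the brightest probe set of a gene, open points for the others, red for called probe sets and dotted lines at 1.5-fold. The 3 Aqp4 probe sets are red at both days, and both Glul and both S100b probe sets lie left of 0 at 3 days.

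Counting groups that did not overlap gave a wider picture than the calls. At 3 days the ouabain arrays lay above the control arrays for Aqp4, Aldh1l1 and Olig1 and below them for Glul and S100b, which is 5 of 10, beside 37.0% of all probe sets with no overlap in either direction. At 7 days they lay above for Aqp4, Aldh1l1, Mobp, Olig1 and Olig2 and below for Glul, which is 6 of 10, beside 38.3% of all probe sets. Separation of the groups by itself was thus common on these arrays.

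No difference passed the test between the 2 responses or between the control groups. The response at 7 days minus that at 3 days was called for 0 markers, beside 0.169% of all probe sets called higher and 0.653% lower. Mog had the widest estimate, -0.77 (SE 0.55, limma adjusted p = 0.617), and S100b, the 1 marker with an unadjusted p under 0.05, differed by 0.38 (SE 0.15, limma adjusted p = 0.31). Control ears at 7 days minus those at 3 days also gave 0 calls among the markers, beside 0.00222% of all probe sets called higher and 0.00888% lower, and 3 (Glul, Olig1 and Olig2) had an unadjusted p under 0.05. The 4 oligodendrocyte markers still had positive estimates there, 0.93 for Olig1, 0.65 for Mog, 0.64 for Olig2 and 0.11 for Mobp, with limma adjusted p from 0.639 to 0.967.

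The spread between arrays of 1 group was large for these markers. The pooled SD within groups was 0.57 for Mog, 0.42 for Mobp, 0.42 for Olig1 and 0.32 for Olig2. Among probe sets of like mean level these values stood at percentiles 98.1, 98.6, 97.01 and 91.4, so most transcripts as bright varied less between arrays. Slc1a2 stood at percentile 94.8 (SD 0.35), Aqp4 at 93.7 (SD 0.23), Slc1a3 at 90.0 (SD 0.22), S100b at 88.6 (SD 0.13) and Aldh1l1 at 76.3 (SD 0.20). Glul varied least, at percentile 59.4 with an SD of 0.08.

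The deviations were shared between markers. Control array 1 at 3 days was the highest of its group for all 4 oligodendrocyte markers, with a median deviation of 0.73, and control array 3 was the lowest for all 4, with a median of -0.54. At 7 days control array 1 was the lowest of its group in 9 of 10 markers and control array 3 the highest in 9 of 10. The ouabain arrays also deviated together: at 3 days array 2 was the lowest in 7 of 10 and array 3 the highest in 7 of 10. Their median deviations for the 4 oligodendrocyte markers were smaller, -0.24 and 0.24. Aldh1l1, S100b and, by a narrow margin, Glul, however, spanned more on the ouabain arrays than on the control arrays at 3 days. At 7 days ouabain array 1 was the highest in 7 of 10.

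**Figure D3:**
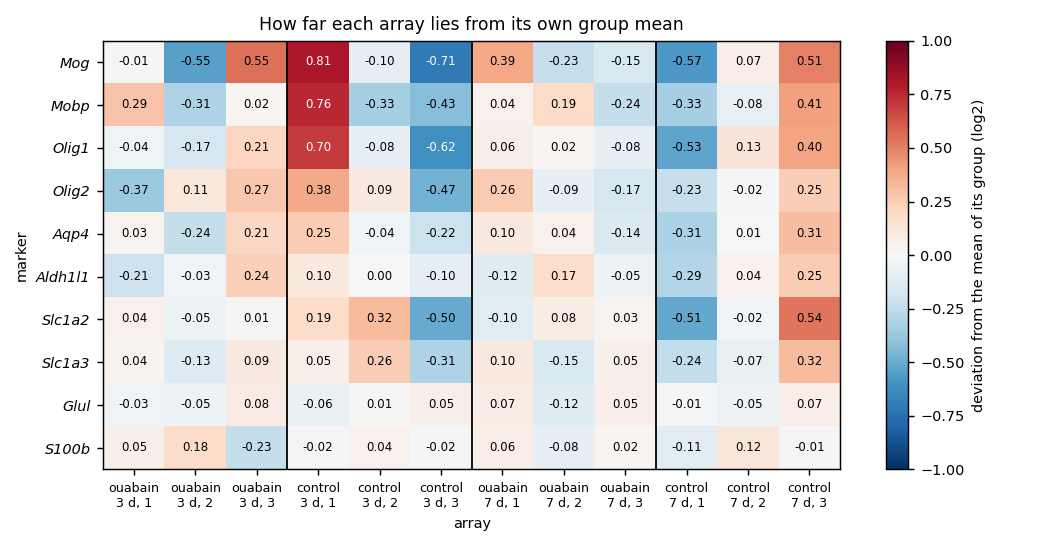
Deviation of each array from the mean of its own group (log2, colour and printed value) for the 10 markers, with the 12 arrays in columns, grouped by treatment and day. Mog, Mobp, Olig1 and Olig2 are 0.38 to 0.81 above their group mean on control array 1 at 3 days, and Glul deviates by no more than 0.12 on any array.

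As a description over the 12 arrays, the deviations of oligodendrocyte markers from their group means correlated with each other. The 6 pairs had Pearson's r from 0.50 to 0.92, with a median of 0.79. The r of Aqp4 was 0.93 to Mog, 0.89 to Olig1, 0.84 to Mobp and 0.68 to Olig2, beside 0.73 to Slc1a2, 0.72 to Aldh1l1 and 0.70 to Slc1a3. The 2 glutamate transporters had an r of 0.87 to each other. Glul and S100b stood outside this group, with r between -0.30 and 0.39 to every other marker. The points share their arrays, RNA pools and normalization, and no test was made.

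Outside the 10 markers, the transcripts whose deviations were most like those of Mog, among 12314 genes with a mean above log2 6, were Ermn (r = 0.97), Hapln2 (r = 0.97), Klhl4 (r = 0.96), S1pr5 (r = 0.95) and Il1rap (r = 0.95). Ermn encodes ermin of mature oligodendrocytes, and Hapln2 encodes a link protein of the matrix at nodes of Ranvier in the brain. Those most like Slc1a3 were other genes, namely Dnajc3 (r = 0.98), Gpx8 (r = 0.96), Dock4 (r = 0.96), AI987944 (r = 0.95) and Xrcc4 (r = 0.94). Within the same 12 arrays Mog and Slc1a3 had an r of 0.71.

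To set aside the level that the markers shared, each was expressed relative to Mog on the same array, an alternative chosen after the data were seen. Olig1 minus Mog was 1.42, 2.003 and 1.82 on the ouabain arrays at 7 days, against 0.50, 0.52 and 0.35 on the control arrays. The control values lay within 0.2 of each other although Olig1 itself spanned nearly 1 log2 unit on these arrays. The groups differed by 1.29 without overlap (exact two-sided permutation p = 0.1, the smallest that 3 against 3 arrays allow). Aqp4 minus Mog was 3.99, 4.55 and 4.29 on the ouabain arrays at 7 days, against 3.66, 3.34 and 3.20 on the control arrays, and Mobp and Slc1a2 were also above without overlap, by 0.65 and 0.57. At 3 days none of the 9 markers separated the groups in this measure. Olig1 minus Mog was then 0.58, 0.98 and 0.27 on the ouabain arrays, against 0.07, 0.20 and 0.27 on the control arrays, and Aqp4 minus Mog averaged 3.55 on the ouabain arrays and 3.69 on the control arrays. With the Mog level as a covariate in the limma fit, Olig1 was the 1 marker called at 3 days (0.69, limma adjusted p = 0.0101), and Aqp4, Mobp, Olig1 and Slc1a2 were called higher at 7 days. Mog itself differed between the groups by 0.81 at 3 days (SE 0.39) and by 0.04 at 7 days (SE 0.39). Subtracting it therefore lowered every mean difference at 3 days. All but that of Olig1 (0.43) were then negative, down to -1.13 for Glul and -1.22 for S100b. The mean differences at 7 days stayed nearly as they were. Aldh1l1, Olig2 and Glul, whose groups did not overlap at 7 days before, overlapped after the subtraction. Whether the markers changed unequally was not tested, and these values do not show that Mog was constant.

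**Figure D4:**
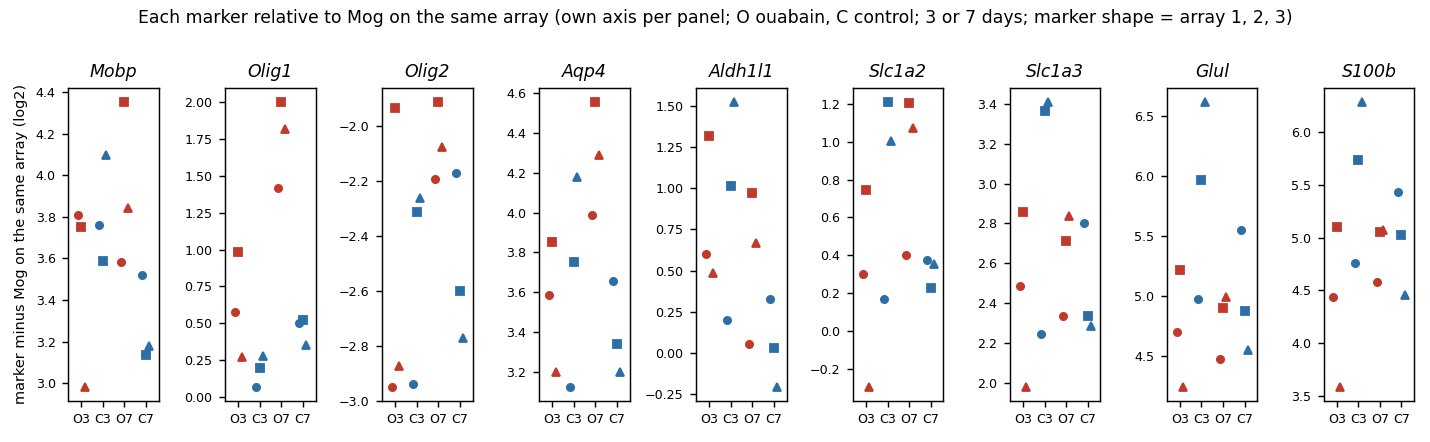
Log2 value of each of 9 markers minus that of Mog on the same array, for ouabain (O, red) and control (C, blue) arrays at 3 and 7 days, with a separate axis for each marker. Olig1 minus Mog lies at 1.42 or more on the ouabain arrays at 7 days and at 0.52 or less on the control arrays.

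Transcripts of cerebellar neurons, which are not part of the cochlea, were high on some arrays. Gabra6, a GABA receptor subunit of cerebellar granule cells, read 5.10, 4.46 and 8.01 on the ouabain arrays at 3 days, against 4.28, 4.08 and 3.85 on the control arrays. At 7 days it read 5.62, 8.84 and 4.86 on the ouabain arrays, against 4.24, 6.07 and 11.12 on the control arrays. Mog spanned 1.52 log2 units on the control arrays at 3 days, where Gabra6 was 4.28 or less. The array highest in Gabra6 in the 7-day control group was also the highest there in 9 of 10 central glia markers, and the array highest at 3 days after ouabain was the highest of its group in 7 of 10. Ouabain array 2 at 7 days, high in Gabra6 too, was not high in Mog. Cbln3, also of granule cells, had the same 3 arrays highest in their groups, and the 14 measured genes of inhibitory, cerebellar and brainstem neurons averaged 6.47 to 7.25 on the ouabain arrays and 6.27 to 7.73 on the control arrays of both days. Without the 3 arrays with Gabra6 above log2 8, chosen after the data were seen, 1 marker was called at 3 days (Olig1, 1.13, limma adjusted p = 0.0466) and 4 at 7 days (Aldh1l1, Aqp4, Olig1 and Slc1a2). The part of brain tissue in the marker levels was not tested.

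**Figure D5:**
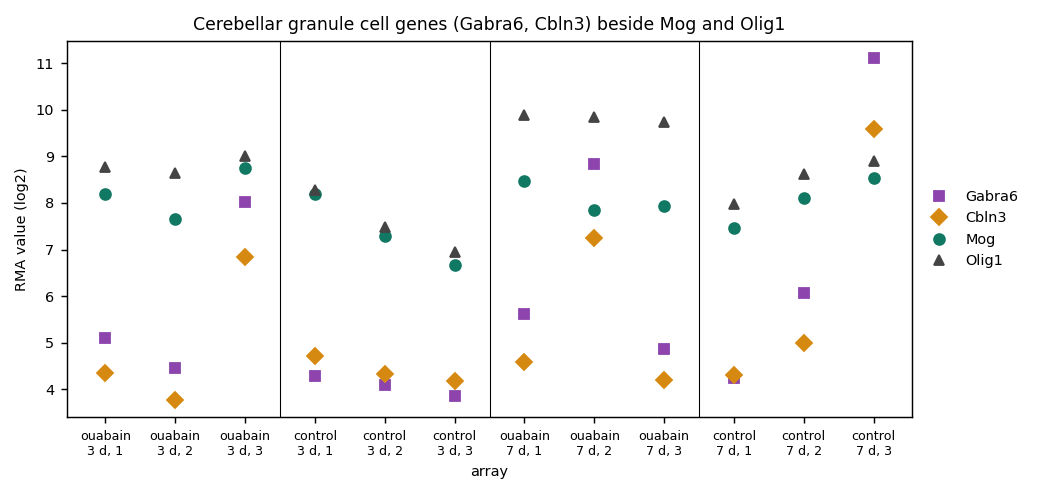
Log2 RMA values of the granule cell genes Gabra6 (squares) and Cbln3 (diamonds) beside Mog (circles) and Olig1 (triangles) on each of the 12 arrays. Gabra6 exceeds log2 8 on 3 arrays, 1 in each group other than the 3-day controls, and reaches 11.12 on control array 3 at 7 days.

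Some other genes of astrocytes had larger changes than the 10 markers. Of 24 measured, 5 rose at 3 days and 8 at 7 days, and none was called lower. Beside this list and those below stand the shares over all probe sets. These were 5.71% higher and 6.58% lower at 3 days, and 6.14% higher and 6.51% lower at 7 days. The median of the list on the log2 scale was 0.14 at 3 days and 0.46 at 7 days. Gfap, the intermediate filament of reactive astrocytes and also of non-myelinating Schwann cells, rose by 1.89 at 3 days and by 1.89 at 7 days. Itih3 rose by 2.06 and 3.04 and Dio2, which activates thyroid hormone, by 1.28 and 2.05.

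Other genes of oligodendrocytes were divided. Several of them are also found in Schwann cells, among them Aspa, Tspan2, Fa2h, Mbp and Sox10. Of 20 measured, 4 rose and 1 fell at 3 days, and 5 rose and 3 fell at 7 days. Aspa, which cleaves N-acetylaspartate, rose by 2.08 at 3 days and 1.81 at 7 days, and Tspan2 by 1.38 and 1.56. Fa2h, which makes hydroxylated myelin lipids in both kinds of glia, fell by 1.03 and 1.51. Mbp, myelin basic protein, differed by -0.13 and -0.10 and was not called, and Sox10 differed by 0.51 at 3 days, where it was not called, and rose by 0.66 at 7 days. Of 11 measured genes of oligodendrocyte precursors, 2 rose and 1 fell at 3 days, and 3 rose and 1 fell at 7 days. Gpr17 rose by 1.20 and 1.65, Vcan, also found in fibroblasts and pericytes, by 2.10 and 1.48, and Lhfpl3 fell by 3.16 and 2.97.

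Relatives of the glutamate and S100 markers were measured too. Of 12 other genes of glutamate and glutamine handling, 1 rose and 4 fell at 3 days and 4 fell at 7 days, with medians of -0.35 and -0.27, led by the vesicular transporters of neurons, Slc17a7 (-2.93 and -2.82) and Slc17a6 (-2.16 and -2.53), and by Slc38a1, a glutamine carrier (-1.31 and -0.63). Of 13 other S100 genes, 4 rose at 3 days, and 2 rose and 1 fell at 7 days. S100a4 rose by 4.14 and 2.16 and S100a6 by 1.26 and 0.72 at the 2 days, while S100a3 rose by 0.60 at 3 days and fell by 1.06 at 7 days.

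Markers of other cells moved with the treatment as well. Of 14 Schwann cell genes, 5 rose and 3 fell at 3 days and 6 rose and 5 fell at 7 days, with Cdh19 (3.06 and 3.33) and Foxd3 (2.35 and 2.39) higher and the myelin gene Ncmap (-1.47 and -2.48) lower. Their mean log2 level was 10.31 to 10.41 on the ouabain arrays at 3 days, against 9.84 to 9.91 on the control arrays. At 7 days it was 9.87 to 10.13 on the ouabain arrays, against 9.71 to 9.82 on the control arrays. The median change of these genes was 0.35 at 3 days and 0.04 at 7 days. Of 16 neuronal genes 14 fell at each day, among them Kcnc1 (-3.66 and -4.79), Vsnl1 (-3.33 and -4.61) and Syt2 (-3.44 and -4.43). Their mean log2 level was 7.86 to 9.46 on the ouabain arrays at 7 days, against 11.57 to 12.00 on the control arrays. Of 12 genes of microglia and macrophages 10 rose at each day, among them Cd68 (3.08 and 2.33), Trem2 (2.13 and 2.02) and Adgre1 (1.93 and 1.59).

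Cells that share markers with astrocytes were mixed. Of 13 supporting cell genes 2 rose and 1 fell at 3 days, and 3 rose and 1 fell at 7 days. Over all probe sets 5.71% were called higher and 6.58% lower at 3 days, and 6.14% and 6.51% at 7 days. Single calls in the short lists of this paragraph are therefore not read as a change of a cell type. Matn4 (1.07 and 1.52) and Sox2 (1.22 and 1.21), which central glia and Schwann cells also use, were higher, and Prox1 (-1.84 and -2.05) was lower. The forebrain interneuron factors Dlx1 (0.94 and 1.47) and Dlx2 (0.59 and 0.64) were called higher at both days, with no other gene of their list called. Fibroblast genes rose in 1 of 8 cases at 3 days and 4 of 8 at 7 days, with Postn (2.12 and 1.92) first, Col3a1 at 0.51 and 1.05 and Pdgfrb at 0.32 and 0.85, the last 2 called at 7 days. At 7 days 1 of 8 endothelial genes (Eng, 0.59) and 1 of 7 bone genes (Phex, 0.95) were called higher. No erythroid gene was called at either day, with Slc4a1, the anion exchanger of red cells, at 0.10 and -0.65. The part of these cells in the level of the central glia markers was not tested.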

How the data were processed

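Auditory nerve preparations were hybridised to Affymetrix mouse genome arrays. The deposited values are log2 expression values that the authors made with the Affymetrix Expression Console by RMA, with no version given in the sources used here, and they were used unchanged. RMA equalises the distributions of the arrays, so a change shared by most transcripts would not appear. The methods of the study give less RNA per array than the labels do. With 3 arrays a group, their number limits the precision, and since pools may share animals, p-values measure only the spread between arrays.

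Of 45101 probe sets 64 were array controls and did not enter. By the platform annotation, 34945 carry 1 symbol, 932 several and 9160 none. A further probe set shared by Slc1a2 and another gene was not used. The brightest probe set by mean over all arrays stands for a gene. A model with a mean for each of the 4 groups was fitted in limma 3.58.1 under R 4.3.3 (lmFit, eBayes), with Benjamini-Hochberg adjustment over 45037 probe sets. Calls needed an adjusted p under 0.05 and a fold above 1.5. Python 3.11.15 served for tables and plots. The fit was tested on data made with known answers. Likeness is Pearson's r of deviations from group means.

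The members, the gene lists and the naming rule were chosen with earlier results of these data known. Named are all members, Gfap, Sox10 and Mbp, up to 3 called genes of each other list with the largest changes, or the brightest gene where none was called, and the 5 genes most like Mog and Slc1a3. Gabra6, Cbln3 and the promoter pair were chosen after their values or letters were seen.

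Alternatives were no fold threshold, a fold above 2, the methods' t-test with unadjusted and adjusted p, a fit on 1 day, a replicate block, removal of dim probe sets, array weights, quantile normalization once more, the 75th percentile of each array subtracted, a trended and robust moderation, the mean of the probe sets of a gene and each array left out. A Mog covariate and a fit without arrays of high Gabra6 were added after the data were seen.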

Additional observations from a re-analysis of the deposited data

How the results depend on the processing

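Of 10 markers, 4 were called at 3 days and 2 at 7 days. With a fold above 2, 1 was called at each day (Olig1). With the methods' t-test 3 were called at 3 days and 2 at 7 days at unadjusted p, and 0 at either day after Benjamini-Hochberg adjustment. With the Mog level as a covariate 1 of 9 was called at 3 days and 4 at 7 days, and without the arrays with Gabra6 above log2 8, 1 at 3 days and 4 at 7 days, both chosen after the data were seen. Leaving out each array in turn gave 1 to 6 at 3 days (1 without ouabain array 3, 2 without control array 3 and 6 without control array 1 of that day) and 2 to 4 at 7 days (4 without control array 3 of that day). The cause was not tested. Without the fold threshold 6 were called at 3 days, Glul and S100b among them, and 3 at 7 days. The difference of the responses and that of the control groups gave 0 calls under each alternative run.

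Signs turned only for differences that were not called. With each array left out in turn, Mog at 7 days lay between -0.24 and 0.30 and S100b at 7 days between -0.083 and 0.030. The response at 7 days minus that at 3 days lay between -0.18 and 0.11 for Slc1a3, -0.19 and 0.40 for Mobp, -0.26 and 0.40 for Olig1 and -0.42 and 0.0024 for Olig2. For Slc1a3 it was 0.034 with array weights, 0.10 with the mean of its probe sets, 0.16 with the Mog covariate and 0.23 without the arrays of high Gabra6. For Mobp it was -0.079 with the mean of its probe sets. With the Mog covariate it was 0.011 for Aldh1l1 and 0.10 for Olig2, and without the arrays of high Gabra6 0.015 and 0.067. Slc1a2 at 3 days was -0.050 with the Mog covariate, and S100b at 7 days 0.0075 without the arrays of high Gabra6.

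The replicate numbers were not taken as pairs, since the labels do not say that they mark the same animals. Control ears were left ears of treated mice, so such pairs may exist. For equal numbers the correlation of deviations over all probe sets was 0.33, 0.09 and 0.18 at 3 days and 0.28, 0.16 and 0.02 at 7 days. For unequal numbers it lay between -0.27 and 0.15 at 3 days and between -0.33 and 0.15 at 7 days, and most were negative. Whether equal numbers share animals was not settled. Not every array correlated best with its own number. With the replicate block 3 markers were called at 3 days (Aldh1l1, Aqp4 and Olig1), where Olig2 had an adjusted p of 0.0918, and 2 at 7 days, and 0 for the difference of the responses.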
